A study of Mus musculus with 4 samples.

Results

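Acyl-CoA synthetases and fatty acid uptake genes were taken here as 10 genes, the long-chain acyl-CoA synthetases Acsl1, Acsl3, Acsl4, Acsl5 and Acsl6, the fatty acid transport proteins Slc27a1, Slc27a2 and Slc27a4, the scavenger receptor gene Cd36 and the liver fatty acid binding protein gene Fabp1. They were found by gene name among the probes of the array, which gave 12 probes of 55681, with 2 each for Acsl1 and Acsl6 and 1 for each of the others. Testing required that the scanner software call a probe well above background on both replicates of either group, and 11 of the 12 passed, all of them on all 4 arrays. The second Acsl6 probe was not well above background on any array. The tested genes numbered 24637.

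The RNA came from primary hepatocytes, the parenchymal cells of liver, of mice of the strain labelled bl6, and was hybridised to Agilent arrays of 1 colour. One group received GW3965 at 1 µM, a drug that activates the liver X receptors (LXR), and the other received DMSO, overnight. The treated samples' own label reads LXR against GW3965, and the design text names GW3965 as the agonist. Both groups were grown with 10% fetal bovine serum and then moved for the treatment to 0.5% serum, simvastatin at 5 µM, which blocks cholesterol synthesis, and mevalonic acid at 100 µM, an intermediate that lies beyond the block. Each group had 2 arrays, replicates a and b, all on 1 slide, and nothing in the labels says whether they came from separate animals or cultures, so that p-values measure only the spread between these samples, which may be technical.

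A fatty acid that enters a cell is used only after it has been joined to coenzyme A, the step that the acyl-CoA synthetases catalyse. The acyl-CoA can then go into triglycerides and phospholipids or into oxidation, and the isoenzymes differ in the membranes they sit on and in the fatty acids they prefer. Uptake is helped by CD36 at the cell surface and by the fatty acid transport proteins, several of which are acyl-CoA synthetases themselves, while FABP1 carries fatty acids through the cytosol of the hepatocyte. LXR is known in liver for raising cholesterol export and fatty acid synthesis.

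The probes of Acsl5, Acsl1 and Acsl6 are shown because results turn on them, and because the oligo fixes which part of a transcript was read. The Acsl5 probe A_52_P593037 is assigned to chr19:55368743-55369331 on the plus strand of mm9, the build of the array files, a span of 589 bases for an oligo of 60, so that it joins sequence from more than 1 exon, and it is shown whole. The 2 Acsl1 probes start 1458 bases apart on the plus strand of chromosome 8, at chr8:47619774-47619833 and chr8:47621232-47621291. The 2 Acsl6 probes start 34017 bases apart on the plus strand of chromosome 11, at chr11:54174651-54174710 and chr11:54140634-54140693. The first 30 bases of these 4 are given, 5′ to 3′.
Acsl5 A_52_P593037: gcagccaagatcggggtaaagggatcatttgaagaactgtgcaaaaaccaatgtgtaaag
Acsl1 A_51_P496432: gcctaacttcatactcgtattcttaattgc
Acsl1 A_51_P463452: agagctacggaactatttcaggtcgcagat
Acsl6 A_51_P380699: agagtacttcaaaaagcaaatagaagagct
Acsl6 A_52_P352187: atcgtcgataaaccccacaaggcaacactt

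The arrays had between 62.5% and 69.1% of probes well above background, with 0 saturated spots. The higher share of each pair was that of replicate b, at 64.1% and 69.1% for GW3965 replicates a and b, and at 62.5% and 65.2% for DMSO replicates a and b. Over all tested genes (genes are not replicates), replicate a minus replicate b had an SD of 0.559 on the log2 scale with GW3965 and 0.560 with DMSO. The difference between the group means had an SD of 0.235 over the same genes. The first 2 are gaps between single arrays and the last a difference of means, so they are not set against each other. All 10 hepatocyte markers were well above background on all arrays, and Abca1, the LXR target that exports cholesterol, differed by 2.58 ± 0.39 on the log2 scale (SE, 2 arrays per group). The question put to these data was how the agonist's presence relates to transcripts of fatty acid activation and uptake. Levels below are given as the log2 of the signal over each array's 75th percentile, and a level is compared only within its own probe. Whether a difference reflects RNA per cell or the share of cells that hold the transcript cannot be told apart in such bulk samples.

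With GW3965, the mean was higher for 6 of the 10 genes and lower for 4, while 48.5% of all tested genes had a higher mean. The larger differences were those of Acsl3, 1.79-fold higher, and Acsl5, 1.44-fold higher, and in both the GW3965 arrays lay above the DMSO arrays. Slc27a2, Slc27a4, Cd36, Fabp1 and Acsl1 all differed by less than 0.2 on the log2 scale. No gene passed the test, as limma called 0 of the 10 and 0 of all 24637 genes at a Benjamini-Hochberg adjusted p under 0.05 (0% called). At an unadjusted p under 0.05 limma gave 1 of the 10, Acsl3, against 0.824% of all genes. The GW3965 arrays were both above the DMSO arrays for 4 of the 10, Acsl3, Acsl5, Acsl6 and Slc27a1, against 9.41% of all genes, and below them for 1, Acsl1, against 6.55%. The median log2 difference was 0.146 over the 10 genes and -0.006 over all genes. Left-out arrays moved the median of the 10 genes to between -0.002 and 0.287, and without DMSO replicate b it was -0.002, below that of all genes at 0.039. With 2 arrays per group the smallest two-sided p of an exact permutation test is 0.333, so none was used for single genes.

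**Figure D1:**
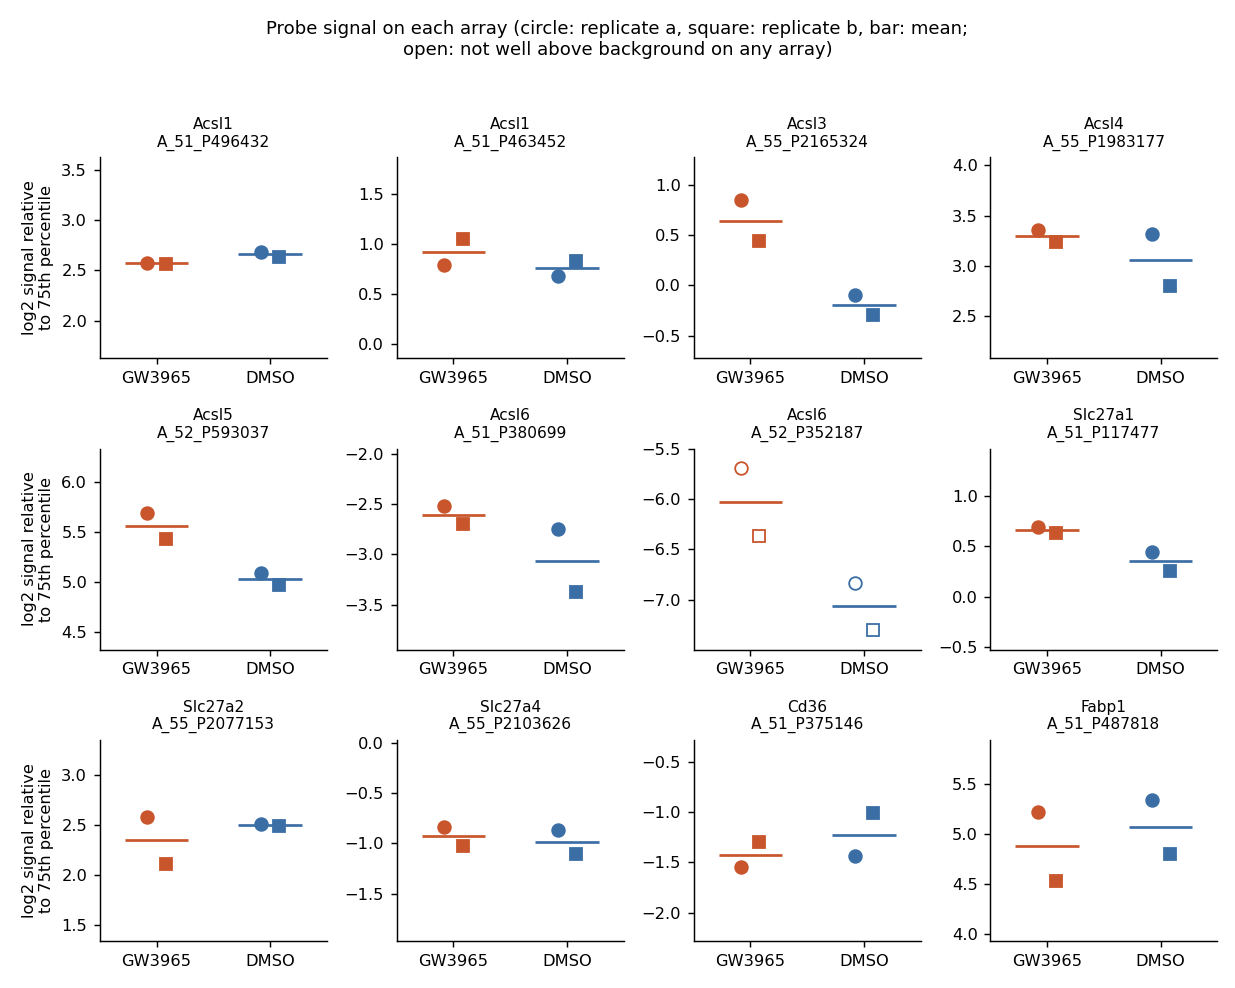
Signal of each of the 12 probes on each array (y axis, log2 of signal over the array's 75th percentile, same span in all panels), with GW3965 left of DMSO, circles for replicate a, squares for replicate b and bars for group means. Acsl3 stood at 0.84 and 0.44 with GW3965, above both DMSO arrays at -0.09 and -0.29, while the arrays of Cd36, Fabp1, Slc27a2, Slc27a4, Acsl4 and the second Acsl1 probe overlapped.

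Acsl3 encodes a long-chain acyl-CoA synthetase of the endoplasmic reticulum and of lipid droplets. Its level was 0.84 and 0.44 on GW3965 replicates a and b, against -0.09 and -0.29 on DMSO replicates a and b. Before scaling, the processed spot signal was 915.0 and 914.0 with GW3965 and 510.4 and 493.3 with DMSO. Both GW3965 arrays were therefore above both DMSO arrays on either scale, and the replicates of a group lay closer together before scaling than after it. The log2 difference was 0.84 ± 0.23 (SE, limma, 2 arrays per group), with a 95% interval of 0.23 to 1.44 and an adjusted p of 1.00 over all genes. The smallest difference between a GW3965 and a DMSO array was 0.53 and the largest 1.14. By size, Acsl3 ranked 166 among the 24637 genes for differences toward GW3965, and by unadjusted p (0.0170) it ranked 71. That unadjusted p was 0.0925 without GW3965 replicate a and 0.0867 without DMSO replicate b.

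Acsl5, an acyl-CoA synthetase found on mitochondria and the endoplasmic reticulum, stood at 5.69 and 5.43 with GW3965, against 5.09 and 4.97 with DMSO. Its spot signals were 26243.6 and 28968.3 with GW3965 and 18604.5 and 18963.8 with DMSO, none saturated. Here too the groups did not overlap, with a gap of 0.33 between the lower GW3965 array and the higher DMSO array. The log2 difference was 0.52 ± 0.20 (SE, limma), with a 95% interval of -0.006 to 1.05 and an unadjusted p of 0.0516. Acsl5 ranked 507 among all genes by difference toward GW3965 and 216 by p.

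Acsl4 encodes the isoenzyme that prefers arachidonic acid. It had levels of 3.36 and 3.24 with GW3965 and 3.32 and 2.80 with DMSO. DMSO replicate b was low, and DMSO replicate a lay between the 2 GW3965 arrays, so the groups overlapped. The log2 difference of 0.24 ± 0.25 (SE) had a 95% interval of -0.41 to 0.89, and it was -0.018 without DMSO replicate b.

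Acsl6, known mainly from brain, was read by probe A_51_P380699 at -2.52 and -2.70 with GW3965, against -2.75 and -3.38 with DMSO. The groups were apart by 0.055 only, and DMSO replicate b was the low array. The log2 difference was 0.46 ± 0.28 (SE), with a 95% interval of -0.27 to 1.18. It was 0.14 without DMSO replicate b and 0.77 without DMSO replicate a. The other probe, A_52_P352187, had spot signals of 9.8 and 8.1 with GW3965 and 4.8 and 3.8 with DMSO, not well above background in either group, and gives no fold. Its scanner error was 29.8% to 87.1% of the signal, against 10.0% to 11.0% for the probes that passed.

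Acsl1 encodes a major acyl-CoA synthetase of liver, serving both oxidation and lipid synthesis, and its 2 probes differed in sign. Probe A_51_P496432, the brighter and the one used for the gene, stood at 2.58 and 2.57 with GW3965 and at 2.69 and 2.63 with DMSO. Probe A_51_P463452 stood at 0.79 and 1.05 with GW3965 and at 0.68 and 0.83 with DMSO. The first had the GW3965 arrays below the DMSO arrays by 0.058, and the second overlapped. Their log2 differences were -0.09 ± 0.19 and 0.16 ± 0.21 (SE, each probe in a limma fit over 35478 probes, of which 0% had an adjusted p under 0.05 and 1.03% an unadjusted p under 0.05). In the fit by gene the 95% interval of Acsl1 was a fold of 0.678 to 1.30. Among all 11 tested probes, 0 had an adjusted p under 0.05 and 1, that of Acsl3, an unadjusted p under 0.05.

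Because both members of a ratio are read on the same array, ratios to Acsl1 do not depend on the scaling between arrays. Relative to Acsl1 by its brighter probe, the GW3965 arrays were above the DMSO arrays for 5 of the other 9 genes, Acsl3, Acsl4, Acsl5, Acsl6 and Slc27a1, against 17.9% of all other tested genes, a share that was 9.41% without the division, and Acsl1 itself was lower with GW3965 by this probe. With the other Acsl1 probe, which was higher with GW3965, the number was 1 of 9, Acsl3, against 2.66% of all other genes. By that probe the GW3965 arrays were below the DMSO arrays for 1 of 9, Cd36. The share of all genes below was not computed for these ratios, so nothing is read from that count about Cd36. The ratio of Acsl3 to Acsl1 was higher with GW3965 by 0.93 on the log2 scale, and pairs of arrays ran from 0.66 to 1.20. By the second probe the difference was 0.67, from 0.16 to 1.19. For Acsl5 the ratio was higher by 0.61 with the brighter probe and by 0.36 with the other, where the arrays overlapped. Ratios show unequal differences and not which of a pair moved.

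**Figure D2:**
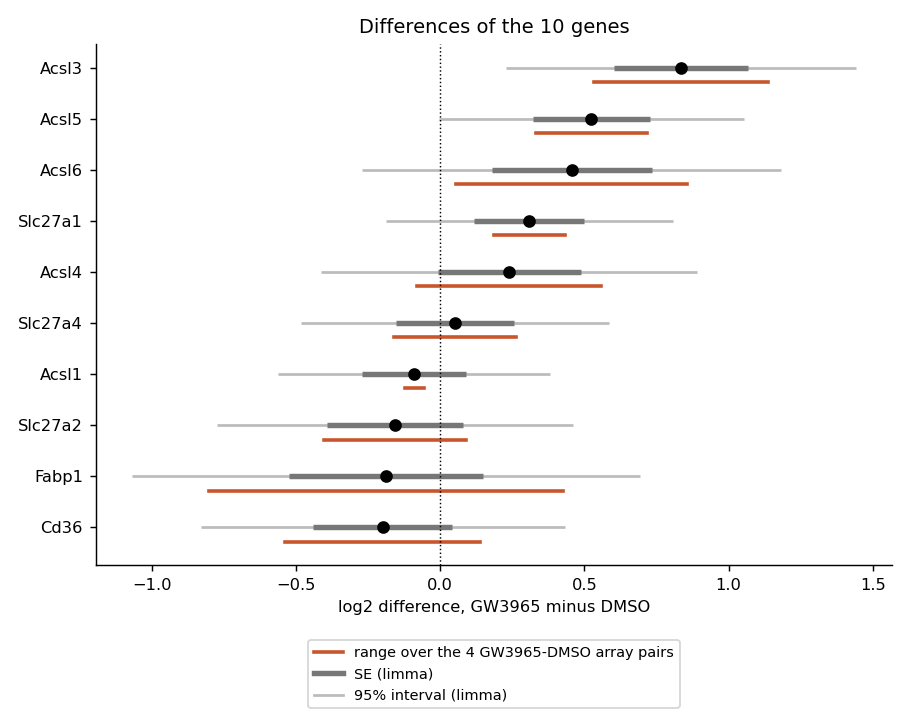
Log2 difference, GW3965 minus DMSO (x axis), of each gene, with limma's SE as thick bars, its 95% interval as thin bars and the range over the 4 pairs of arrays in colour below. The interval of Acsl3 runs from 0.23 to 1.44 and that of Acsl5 from -0.006 to 1.05, and all but that of Acsl3 include 0.

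Among the fatty acid transport proteins, Slc27a1, known from muscle and adipose tissue, stood at 0.69 and 0.63 with GW3965, against 0.45 and 0.26 with DMSO. The groups did not overlap, and the log2 difference was 0.31 ± 0.19 (SE), with a 95% interval of -0.19 to 0.81. Slc27a2, a very long-chain acyl-CoA synthetase and uptake protein of liver, had 2.58 and 2.11 with GW3965 and 2.51 and 2.49 with DMSO. GW3965 replicate b was low and replicate a was above both DMSO arrays, so that the sign turned to 0.079 without GW3965 replicate b, against a log2 difference of -0.16 ± 0.24 (SE) with all arrays. Slc27a4, best known from intestine and skin, had -0.84 and -1.02 with GW3965 and -0.86 and -1.10 with DMSO. This difference was 0.05 ± 0.20 (SE), with a 95% interval of -0.48 to 0.59.

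Cd36 encodes a receptor that helps take up fatty acids and is found on macrophages, endothelial cells and adipocytes as well as on hepatocytes. Its level was -1.55 and -1.30 with GW3965 and -1.44 and -1.01 with DMSO. Replicate b was the higher array in both groups, and the groups overlapped. The log2 difference was -0.20 ± 0.24 (SE), a fold of 0.871 with a 95% interval of 0.563 to 1.35. Of 10 macrophage markers 8 were well above background on all arrays and Timd4 was on none, and their summed signal, in units of the 75th percentile, was 139.9 and 88.6 with GW3965 and 126.0 and 81.4 with DMSO. All 8 endothelial markers were above background, with sums of 34.6 and 44.7 with GW3965 and 32.9 and 41.9 with DMSO. This sum too was higher on replicate b in both groups, though Kdr was not, nor was Tek with DMSO. Replicate b was the higher in both groups for 10685 of all 24637 genes. Adipocyte markers were above background on all arrays for 1 of 4. The part of these cells in the level of Cd36 was not tested.

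Fabp1, the abundant cytosolic fatty acid carrier of hepatocytes, had 5.22 and 4.53 with GW3965 and 5.33 and 4.79 with DMSO. Replicate a was higher than replicate b by a wider margin than that between the group means, in GW3965 and DMSO alike. The log2 difference of -0.19 ± 0.34 (SE) had a 95% interval of -1.07 to 0.69, the widest among the 10 genes. Without GW3965 replicate b it was 0.16 and without DMSO replicate a 0.08. The summed signal of the 10 hepatocyte markers ran the same way, at 2488 and 1498 for GW3965 replicates a and b and at 2326 and 1872 for DMSO replicates a and b, and its part in the Fabp1 values was not tested.

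**Figure D3:**
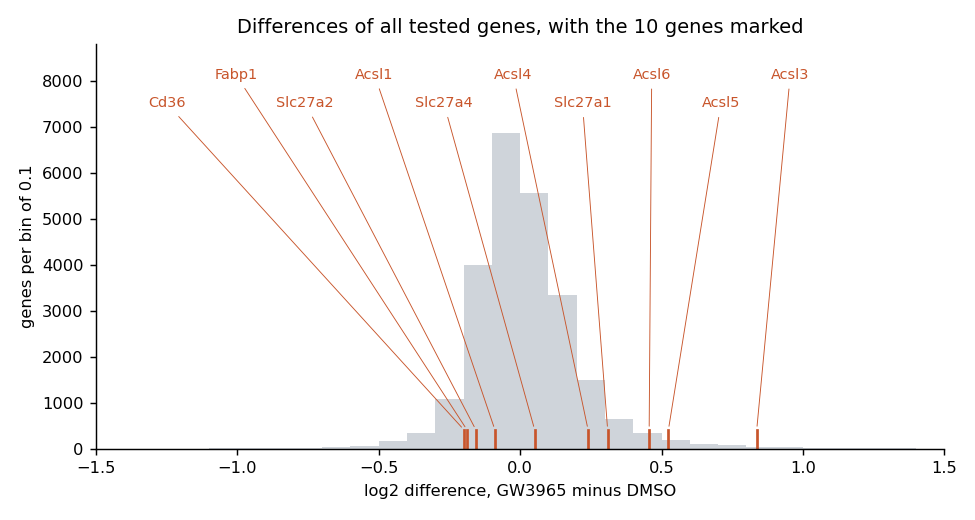
Number of tested genes (y axis) per bin of 0.1 of the log2 difference, GW3965 minus DMSO (x axis), with the 10 genes marked. Acsl3 at 0.84, Acsl5 at 0.52 and Acsl6 at 0.46 lie in the upper tail, Cd36 at -0.20 lies at the lower end of the 10, and 72 genes beyond 1.5 in either direction are not drawn.

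Other genes of the same steps were set beside these, in lists by function. Of 16 other acyl-CoA synthetases 10 were measured, with a median log2 difference of -0.034, and 0 had an unadjusted p under 0.05. Aacs, which activates acetoacetate, differed by 0.43 ± 0.22 (SE). It was the 1 gene of these 10 whose GW3965 arrays lay above the DMSO arrays, near the 9.41% of all genes. The acetyl-CoA synthetase Acss2 differed by 0.40 ± 0.42 with overlap. Of other fatty acid and acyl-CoA binding proteins 13 of 14 were measured. Fabp7 passed the filter only through the GW3965 arrays, so no median is read from that list. The difference was 0.23 ± 0.23 for the fatty acid carrier Fabp5, -0.24 ± 0.21 for the acyl-CoA binding protein gene Acbd5 and 0.14 ± 0.18 for Acbd6. Acyl-CoA thioesterases, which undo the activation, had a median of -0.005 over 11 genes, and a range of -0.149 to 0.226. The arrays overlapped in all 11. Overlap was also the common case over all genes, with 9.41% apart upward and 6.55% apart downward. Among the marker lists, endothelial markers had a median of 0.150, with 7 of 8 higher in mean with GW3965, which is close to the 0.146 of the 10 genes. Hepatocyte markers had a median of 0.009, and stellate cell and fibroblast markers one of 0.135. Of the macrophage markers Clec4f passed the filter only through the GW3965 arrays, and of the cholangiocyte markers Epcam only through the DMSO arrays. No median is read from either list. Of the 3 measured adipocyte markers, Lep and Plin1 passed the filter only through the GW3965 arrays, so no median is read from that list. Cfd, the 1 well above background on all arrays, differed by 0.13 ± 0.50 (SE) with overlap. None of these lists held a called gene or one at an unadjusted p under 0.05, and their part in the members' differences was not tested.

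Where acyl-CoA is used, the enzymes that take it into oxidation had a median of -0.066 over 10 genes. The arrays overlapped in all 10, as they did for most of all tested genes. Cpt1a, the gatekeeper of mitochondrial entry, differed by -0.22 ± 0.23 (SE). Enzymes of glycerolipid synthesis had a median of 0.086 over 10 genes. Lpin1, a phosphatidate phosphatase, stood at 0.59 and 0.59 with GW3965 and at 0.15 and -0.26 with DMSO, a difference of 0.65 ± 0.22 at an unadjusted p of 0.0363. Mogat1, a monoacylglycerol acyltransferase, differed by 0.76 ± 0.36. Lpin1 and Mogat1 were the 2 genes of these 10 without overlap, both above, against 9.41% of all genes above. Targets of PPARA, the fatty acid receptor known to drive Acsl1, Cd36 and Fabp1, had a median of -0.034 over 9 of 10 measured, with 0.27 ± 0.18 for Pdk4. LXR targets, like the other lists chosen with earlier results of these data known, had a median of 0.906 over 14 of 15 measured. The GW3965 arrays lay above the DMSO arrays for 9 of them, against 9.41% of all genes. Among the 9 were Abcg1, a second cholesterol exporter, at 1.98 ± 0.29 and Srebf1, the regulator of fatty acid synthesis, at 1.24 ± 0.20. They lay below for 1, Smpdl3a, at -0.17 ± 0.18, against 6.55% of all genes. The arrays of Lpl, Pltp, Abcg5 and Nr1h3 overlapped. Over all of these lists limma called 0 genes at an adjusted p under 0.05, and at an unadjusted p under 0.05 it gave Lpin1 and 8 LXR targets.

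**Figure D4:**
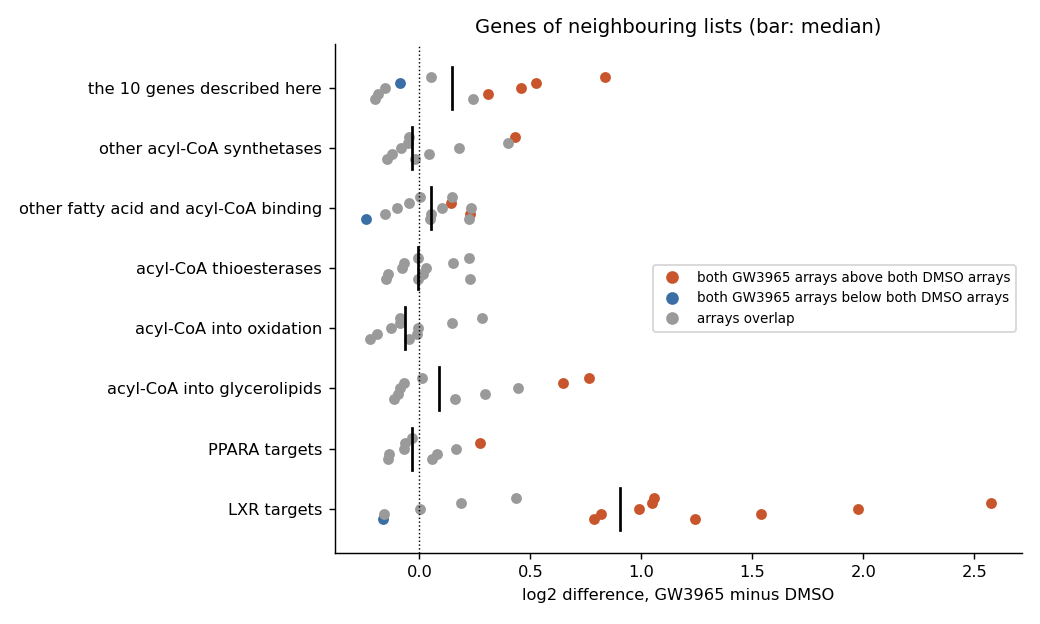
Log2 difference, GW3965 minus DMSO (x axis), of each measured gene by list, with a bar at the median and colours for whether the arrays of the groups overlap. The 10 genes described here have their median at 0.146 with all arrays, and it was -0.002 without DMSO replicate b (not drawn). Among the lists drawn, the LXR targets have the highest median, at 0.906, and the oxidation enzymes the lowest, at -0.066.

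Promoters were compared for motifs, and those of Acsl3 and Acsl5 are printed because these genes had the larger differences. RefSeq entries on GRCm38.p6 gave 15 start sites for the 10 genes, and the 250 bases before each were searched on both strands. The direct repeat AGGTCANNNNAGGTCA, a consensus form for LXR with its partner RXR, was in 0 of the 15 and in 0.0152% of all 32851 promoters. The repeat AGGTCANAGGTCA, the PPAR form, was in 0 of the 15 and in 0.0335% of all. A single AGGTCA was in 4 of the 15, those of Cd36, Fabp1, Slc27a2 and 1 of Acsl6, and in 14.0% of all, and a repeat also counts as single copies. Among the 15, GGGCGG was in 11, against 32.7% of all promoters, and CCAAT in 8, against 33.8%. The Acsl3 sequence (chr1:78657575-78657824, plus strand) held 5 copies of GGGCGG and 1 CCAAT, and the Acsl5 sequence (chr19:55253119-55253368, plus strand) held 0 copies of GGGCGG and 1 CCAAT. Both are given 5′ to 3′ with these motifs in capitals, written as they read on the plus strand, and letter matches in this window describe the sequence and say nothing of binding.
Acsl3: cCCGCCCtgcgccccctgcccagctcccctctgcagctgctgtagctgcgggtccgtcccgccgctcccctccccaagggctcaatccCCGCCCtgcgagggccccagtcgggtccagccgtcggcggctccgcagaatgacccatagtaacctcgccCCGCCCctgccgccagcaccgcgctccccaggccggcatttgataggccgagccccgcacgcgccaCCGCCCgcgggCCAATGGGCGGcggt
Acsl5: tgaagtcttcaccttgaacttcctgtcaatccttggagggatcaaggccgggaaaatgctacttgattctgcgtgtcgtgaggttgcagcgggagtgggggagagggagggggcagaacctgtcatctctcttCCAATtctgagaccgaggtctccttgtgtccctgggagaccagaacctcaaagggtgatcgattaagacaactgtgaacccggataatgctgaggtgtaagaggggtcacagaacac

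With each array left out in turn the log2 difference of Acsl3 ran from 0.634 to 1.04 and that of Acsl5 from 0.394 to 0.654, and both stayed above 0 in all 7 refits that could move them, these 4 and 3 with another scaling or background correction. Those of Acsl6 and Slc27a1 were above 0 in the 7 as well, with lowest values of 0.143 and 0.215. Acsl1 stayed below 0 in 7 of the 8 refits that moved it, and the sign of Acsl4, Slc27a2, Slc27a4, Cd36 and Fabp1 turned when 1 array or another was left out.

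**Figure D5:**
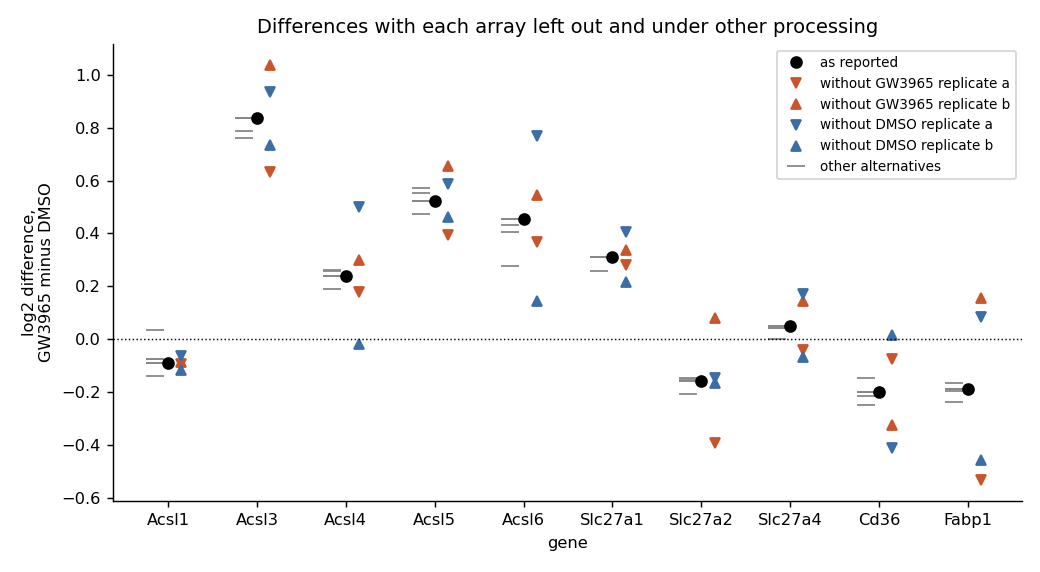
Log2 difference, GW3965 minus DMSO (y axis), of each gene (x axis) as reported, with each array left out (triangles) and under the other alternatives (dashes). Acsl3, Acsl5, Acsl6 and Slc27a1 stay above 0 throughout, which leaving out an array could not change because their groups do not overlap. Fabp1 runs from -0.53 to 0.16.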

How the data were processed

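Values are the processed signal intensity of each spot that the authors deposited, on a linear scale, background-subtracted and detrended by Agilent Feature Extraction 10.7.3.1 per the file headers. The submitters' processing notes name 11.5.1.11 instead. The deposited value table held identical intensity values (62976 features, largest difference 0). The flags for background, saturation and outliers are other scanner output, per the file headers.

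Signals were put on the log2 scale, outlier spots left out, replicate spots averaged, and arrays scaled by subtracting the 75th percentile taken over all probes but controls. Of 55681 probes 35478 passed the filter. Names came from RefSeq accessions for 26762 probes and from the files for 28919, and the probe with the highest mean stood for a gene. GW3965 was compared with DMSO by limma 3.58.1 in R 4.3.3 without a block (2 residual and 2.72 prior degrees of freedom), with Benjamini-Hochberg adjustment across all tested genes. The code was tested on simulated data with noise independent between arrays, and had to recover changed genes only at a spread far below the real one. That test does not show what differences these 4 arrays could detect. Figures were drawn with matplotlib 3.10.9.

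Every probe of the members is described, with Abca1, up to 3 genes of each other list by smallest p, and genes that ran another way than the rest of their list. The number of arrays limits the precision. Alternatives were quantile or median scaling, normexp (offset 50), the value table, other filters, the mean of a gene's probes, other priors, the replicate letter as a block, an adjusted p under 0.1, and each array left out. The oligo of the Acsl3 probe is not reported here. The members and lists were chosen with earlier results of these data known.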

Additional observations from a re-analysis of the deposited data

How the results depend on the processing

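No member passed at an adjusted p under 0.05 by limma under any of the 14 refits or at 0.1. The number of members at an unadjusted p under 0.05 by limma was 1 as reported, against 0.824% of all genes. It was 2 (Acsl3 and Acsl5) with normexp, quantile normalization, an intensity trend, averaged probes or the filter on all arrays. The shares of all genes in these refits were 0.227%, 0.889%, 0.467%, 0.946% and 0.403%, in that order. With the replicate letter as a block the number of members was 3, Acsl6 added, against 5.41% of all genes. In that fit 15 of all genes were called, against 0 without the block, none of them a member, with an adjusted p of 0.312 for Acsl3. The labels do not say that the letters pair the samples. The replicate gaps of both groups correlated at 0.72 across genes, which are not independent, and had the same sign for 10 of the 10 genes and 75.1% of all. With an array left out, 0 to 1 of all genes were called. The cause of these changes was not tested.

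Acsl1 was 0.036 with the mean of its probes, where the second probe enters. With an array left out, the range was -0.018 to 0.498 for Acsl4, -0.392 to 0.079 for Slc27a2, -0.068 to 0.171 for Slc27a4, -0.412 to 0.014 for Cd36 and -0.533 to 0.156 for Fabp1. Of 140 recomputed differences 71 moved, of which 63 kept their sign, and the others could not move because the refit used the same values. For a gene whose groups did not overlap, a left-out array could move the difference but not turn its sign. No scaling moved the median of all genes by over 0.1, the lowest being -0.057 with arrays centred on the median. The number of genes at an unadjusted p under 0.05 was 203 as reported, 56 with normexp, 95 with the filter on all arrays, 115 with an intensity trend, 536 with no filter, 1333 with the block and 416 without DMSO replicate b. The second Acsl6 probe is limited by its signal over background.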
